A study of Mus musculus with 4 samples.

Results

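The genes described here encode carriers that move neurotransmitters and amino acids across membranes. They are all 65 rows of the deposited table whose symbol belongs to the solute carrier subfamilies Slc1, Slc6, Slc7, Slc17, Slc18, Slc32, Slc36 or Slc38, out of 32681 genes in the table. The choice used names only, not measured values. RNA was sequenced from 4 primary neuron cultures made from the neocortex of wild-type CD-1 mouse embryos at embryonic day 13. Of these, 2 received a control short hairpin RNA (shRNA) and 2 a DcpS shRNA. DcpS is the enzyme that breaks down the cap on the short fragment left when an mRNA has been degraded. All 4 grew in Neurobasal medium with B27 supplement, sodium pyruvate and GlutaMax, a stable source of glutamine. The titles give the same construct name, shDcPS-2, for both knockdown libraries, so a single hairpin stands behind the comparison, and the labels do not give the share of cells that took it up. No label ties the cultures to different litters or days, so the spread behind each p-value is that between these libraries and may be technical.

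Solute carriers of these families work in relay at a synapse. Several Slc17 proteins and those of Slc18 and Slc32 fill synaptic vesicles, driven by the proton gradient of the vesicular ATPase. Several Slc1 and Slc6 proteins take the released transmitter back up with sodium. Slc7, Slc36 and Slc38 proteins supply amino acids for growth and for transmitter synthesis, and several Slc7 proteins reach the cell surface only when paired with the heavy chain encoded by Slc3a2. Uptake of glutamate in cortex is mainly a glial task, while the vesicular carriers mark the transmitter a neuron releases.

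The knockdown and the cell type were read first. Dcps had a normalised read count (reads divided by 1 size factor per library) of 499.8 and 507 in the controls, against 114 and 119.6 with DcpS shRNA, which is 23.3% of the control mean. The 10 neocortical neuron markers, Tubb3 and Map2 among them, summed to 102687 and 100048 in the controls, against 97586 and 96073 with DcpS shRNA, and 1 of them, Rbfox3, was called, in the higher direction (log2 fold change 0.24). Libraries held 17754768 to 21793685 reads, so a count of 0 allows up to 0.138 to 0.169 CPM, reads scaled to a common library total. Of 18110 tested genes, 5.79% were called, 2.14% higher and 3.65% lower with DcpS shRNA, where called means an adjusted p under 0.05 (limma on log2(normalised read count + 1), Benjamini-Hochberg over all tested genes).

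Of the 65 transporter genes, 44 had enough reads to be tested, and 3 of these were called. The vesicular glutamate transporter gene Slc17a7 and the neutral amino acid exchanger gene Slc7a10 rose, and the cationic amino acid transporter gene Slc7a2 fell. That is 6.82% of the tested genes, near the 5.79% of all genes. By limma 13 of the 44 had an unadjusted p under 0.05, beside 3380 of all 18110 tested genes. The median log2 fold change was 0.01 for the transporter genes and 0.00 for all tested genes, and the median size of a change was 0.14 against 0.11. The values of the groups did not overlap for 9 genes in the higher and 13 in the lower direction, beside 48.4% of all tested genes in either direction. The 65 genes together took 0.213% and 0.217% of normalised reads in the controls, against 0.215% and 0.213% with DcpS shRNA, so their summed level overlapped between the groups.

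**Figure D1:**
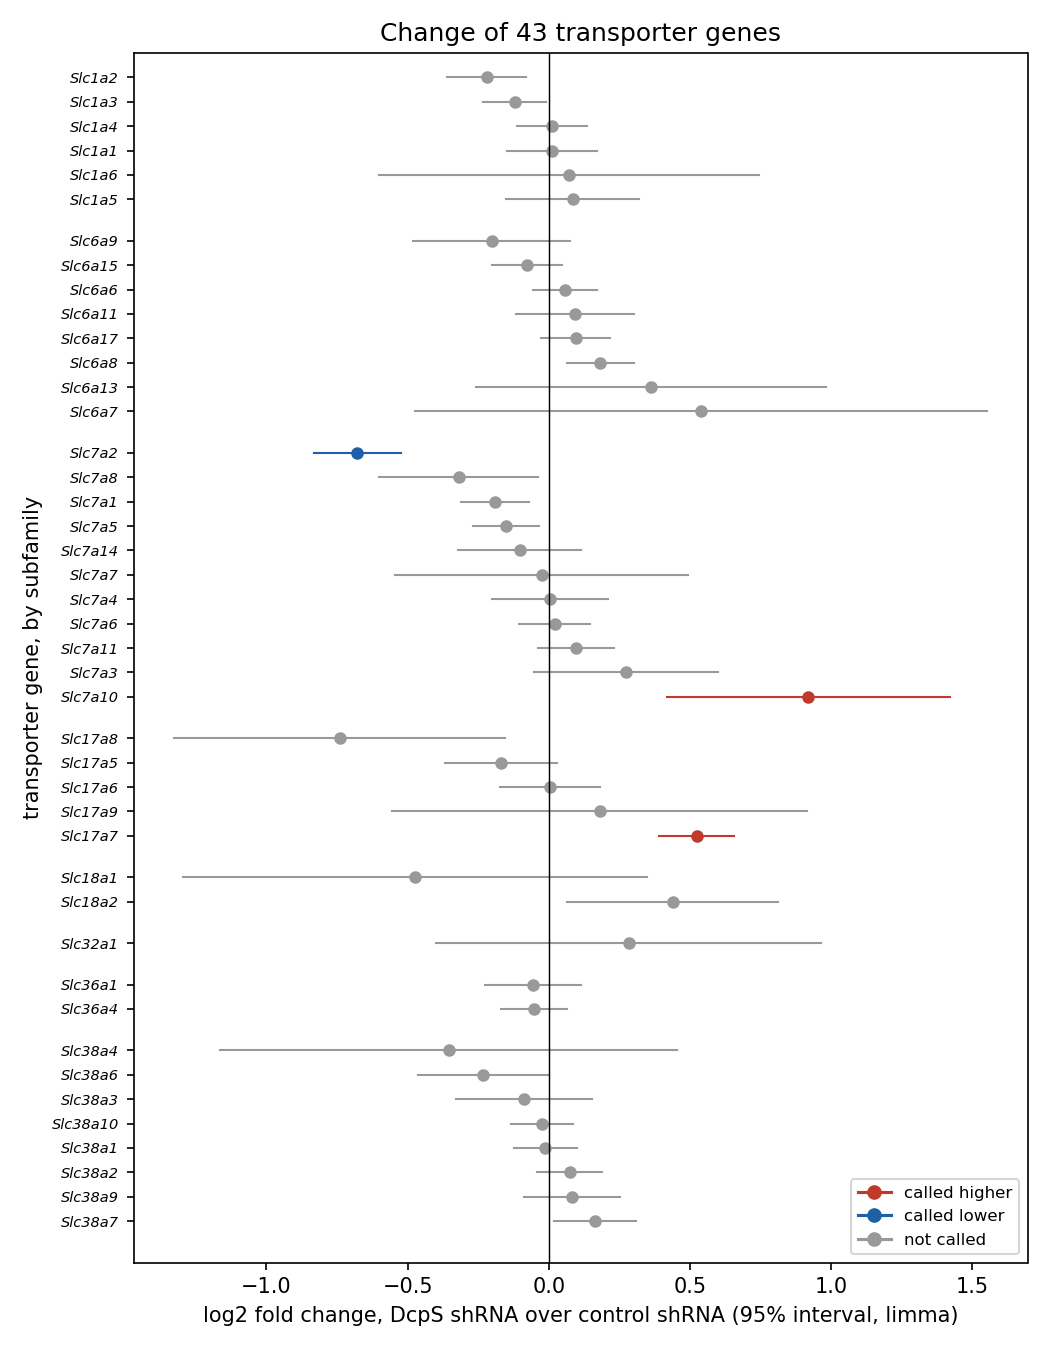
Each point is the log2 fold change of 1 of 43 tested transporter genes (x axis, DcpS shRNA over control shRNA) with its 95% interval from limma, grouped by subfamily on the y axis. Red marks the 2 genes called higher, blue the gene called lower and grey the 40 not called; 28 of the 43 points lie within 0.2 of 0.

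The 21 genes that were not tested had almost no reads, and 19 of them had at most 3 reads in every library. Among them were the carriers of noradrenaline (Slc6a2), dopamine (Slc6a3) and acetylcholine (Slc18a3), the glycine transporter of inhibitory terminals (Slc6a5) and the phosphate and organic anion carriers Slc17a1 to Slc17a4. The other two were the serotonin transporter Slc6a4, with 3 to 8 reads, and the orphan carrier Slc6a16, with 8 to 11. Expression of these genes was at or near the limit of detection, and a change in them was not detectable at this depth.

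Levels between genes can be compared only per length, and are given here as normalised read counts per kilobase of annotated exon, as control means. The length merges the exons of all annotated transcripts of a gene and can exceed that of the mRNA present. Ranks and shares between genes depend on it, and the SD does not cover this. Slc38a1 had more normalised reads than Slc7a5, 5799 against 2604 as control means, but 17236 against 3708 exon bases. The large neutral amino acid transporter Slc7a5 had the highest level of the list, 702 ± 38.8 (SD, n = 2). It was followed by the glutamine carrier Slc38a2 at 529.8 ± 18.6, then by Slc38a10 at 366 ± 2.92, the alanine, serine and cysteine transporter Slc1a4 at 362 ± 6.76, and Slc38a1 at 336 ± 3.34. Slc38a10 and Slc1a4 lay within their spread of each other, and so did Slc38a1 and the glutamate carrier Slc1a3, at 333 ± 5.31. Among Slc17, Slc18 and Slc32 genes the highest was Slc17a7, at 158 ± 6.73, while the GABA carrier of vesicles, Slc32a1, was at 6.16 ± 0.416.

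**Figure D2:**
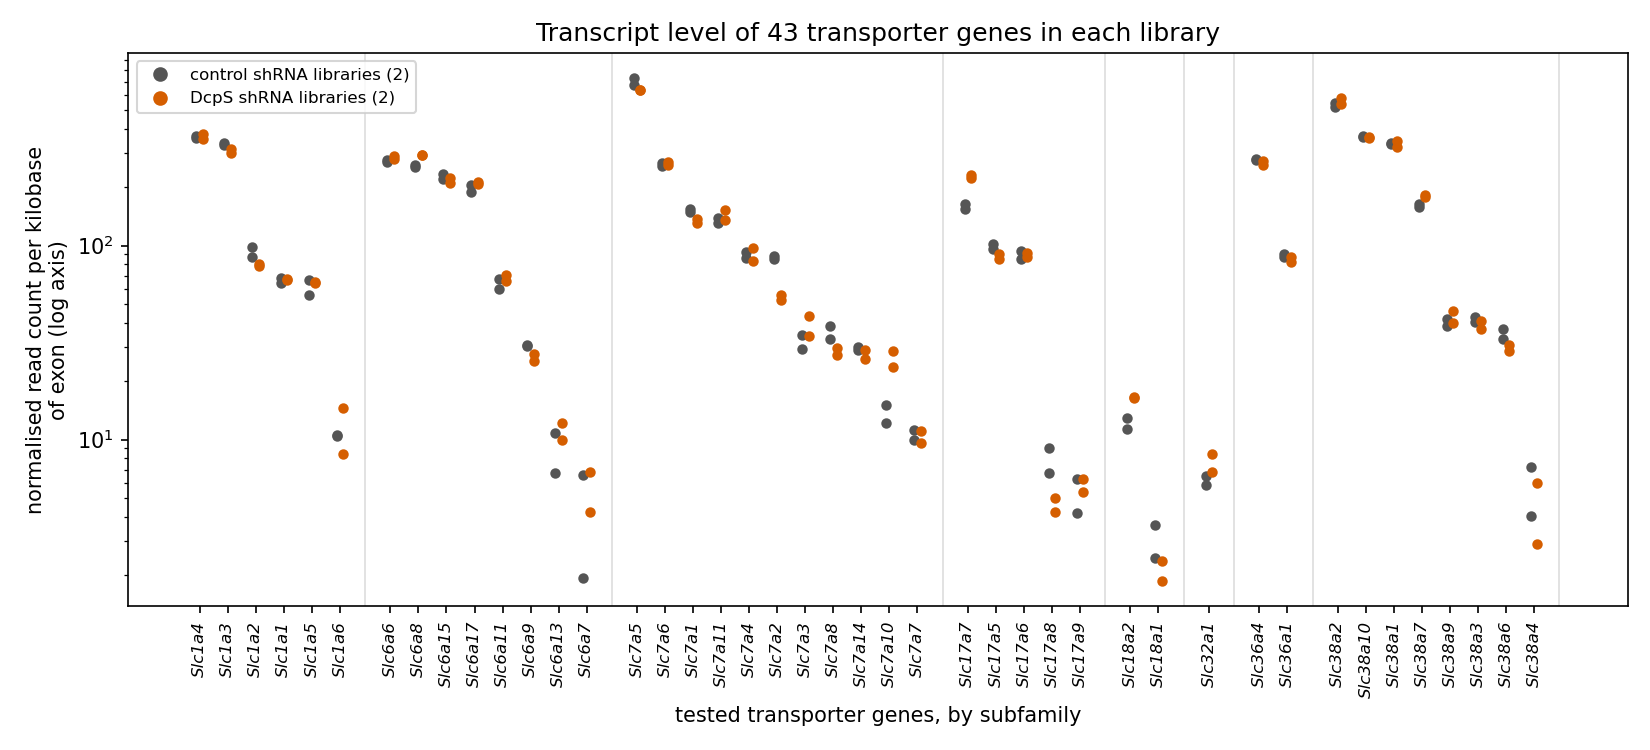
Each point is the normalised read count per kilobase of exon of 1 of 43 tested genes in a library (y axis, log scale), grey for the 2 control and orange for the 2 DcpS shRNA libraries, with genes grouped by subfamily on the x axis. Points of both groups lie close together for most genes, Slc17a7, Slc17a8, Slc7a2 and Slc7a10 are among those that stand apart, and levels span from below 10 to above 500.

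Among the carriers that fill vesicles, Slc17a7 (chr7:45163949-45176142, plus strand, GRCm38) encodes the vesicular glutamate transporter typical of cortical projection neurons. Normalised reads were 828 and 879 in the controls, against 1201 and 1253 with DcpS shRNA. Both knockdown libraries lay above both controls, and the mean went from 853 ± 36.3 to 1227 ± 36.5 (SD, n = 2 per group). This is a ratio of 1.44, with a log2 fold change of 0.52 (SE 0.06, limma, Benjamini-Hochberg adjusted p 8.08e-05). The call held in each of 15 alternative settings, in which the log2 fold change ran from 0.48 to 0.57.

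The closest relatives of Slc17a7 did not pass the test. Slc17a6, the vesicular glutamate transporter of thalamic and other subcortical neurons, which is also present in young cortex, had 458 and 506 normalised reads in the controls, against 493 and 473 with DcpS shRNA. These values overlapped, and the 95% interval of its log2 fold change (limma) ran from −0.17 to 0.18. Slc17a8, found in scattered neurons of other types, had 42.8 and 31.8 reads in the controls, against 20.0 and 23.5 with DcpS shRNA. The groups did not overlap, but its log2 fold change of −0.74 (SE 0.28) was not called (limma, Benjamini-Hochberg adjusted p 0.147).

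Per kilobase, Slc17a7 made up 62.0% and 61.9% of the summed level of these 3 vesicular glutamate transporter genes in the controls, against 70.0% and 71.5% with DcpS shRNA. The sum itself was 247 and 263 in the controls, against 318 and 325 with DcpS shRNA. In both measures the knockdown libraries lay above the controls. With 2 libraries against 2, an exact two-sided permutation test cannot give a p below 0.333, so neither share was tested. The sialic acid exporter of lysosomes, Slc17a5, had 371 and 349 normalised reads in the controls, against 309.8 and 329.7 with DcpS shRNA, and was not called.

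Carriers of other transmitters were sparse. The vesicular monoamine transporter Slc18a2 had 67.5 and 59.5 normalised reads in the controls, against 86.3 and 86.0 with DcpS shRNA, above the controls in both libraries. Its log2 fold change was 0.44 (SE 0.18) and it was not called (limma, Benjamini-Hochberg adjusted p 0.183). Slc32a1, which loads GABA and glycine, had 18.1 and 16.4 reads in the controls, against 19.1 and 23.5 with DcpS shRNA, and its interval was wide, from −0.40 to 0.97 (log2, limma). An annotated antisense gene, Gm14205, lies on the other strand over 697 of the 2797 exon bases of Slc32a1, and the use of strand in counting is not given. Of 16 subunits and accessory proteins of the vesicular proton pump that drives these carriers, limma called 0, and their median log2 fold change was 0.07. By limma 7 of them had an unadjusted p under 0.05, beside 3380 of all 18110 tested genes. Of these 7, Atp6v1a and Atp6v1b2 were lower and the others higher. Neither edgeR nor DESeq2 called any of the 16.

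Slc7a2 (chr8:40862396-40922308, plus strand) encodes a carrier of arginine, lysine and ornithine. Normalised reads were 808 and 775 in the controls, against 508 and 481 with DcpS shRNA. The groups stood well apart, and the mean dropped to 62.4% of the control value, from 791 ± 22.9 to 494 ± 19.3 (SD, n = 2 per group). The log2 fold change was −0.68 (SE 0.07, limma, Benjamini-Hochberg adjusted p 2.51e-05) and ran from −0.72 to −0.64 over 15 alternative settings, all of them called. An annotated long noncoding RNA, Gm26584, lies on the other strand over 635 of the 9135 exon bases of Slc7a2, and the use of strand in counting is not given. Transcript forms of Slc7a2 with different affinity for arginine cannot be told apart from counts per gene.

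Markers of several non-neuronal cell types were also lower. Of 9 tested meningeal fibroblast markers 7 were called lower, and their summed normalised reads were 11309 and 12419 in the controls, against 6899.6 and 6667 with DcpS shRNA. Of 6 tested endothelial and mural markers 3, Kdr, Pdgfrb and Acta2, were lower. Sums of that list were 731 and 786 against 451 and 421, of which Pdgfrb alone was 506 and 534 against 329 and 304. Pecam1 went the other way, with 5.70 and 12.3 against 20.0 and 14.5, and was not called, and Cdh5 overlapped between the groups. Of 6 tested choroid plexus markers 2 were lower, with sums of 5618 and 5817 against 4246 and 4577. Of 7 tested astrocyte markers 4 were lower, Gfap, Aqp4, Gja1 and Sparcl1, and Aldoc was higher, with sums of 7876 and 7863 against 7480.2 and 7609. None of 7 tested microglia and macrophage markers was called by limma (1 at an unadjusted p under 0.05) or edgeR, with sums of 199.5 and 199.98 against 179 and 197.8. None of 6 tested Cajal-Retzius markers was called by limma (1 at an unadjusted p under 0.05), edgeR or DESeq2, with sums of 8216 and 8180 against 8066 and 7284. Of 6 tested markers of the oligodendrocyte lineage 1, Mbp, was called, in the higher direction, while 5 had a negative log2 fold change. Olig1 (−0.58) and Olig2 (−0.79) were among these 5 and were not called. By limma 3 of the 6 had an unadjusted p under 0.05. The sums of this lineage were 564 and 591 in the controls, against 575 and 590.04 with DcpS shRNA. Among these markers none was at 0 in all 4 libraries, while Gjb6, Cldn5, Tie1, Kl, P2ry12 and Sox10 were at 0 in at least 1. Fewer cells of a type and less RNA per cell cannot be told apart in these cultures, and the part of any of these cells in the level of Slc7a2 or of another transporter gene was not tested.

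Slc7a1, the more abundant and more widely expressed cationic carrier, had 1725 and 1783 normalised reads in the controls, against 1499 and 1575 with DcpS shRNA. Both knockdown libraries lay below the controls, with a log2 fold change of −0.19 (SE 0.06) that did not pass the test (limma, Benjamini-Hochberg adjusted p 0.0603). It was called by edgeR's quasi-likelihood test (adjusted p 0.0486) and without DcpS shRNA 2 (limma, adjusted p 0.0117). Over all its alternatives the adjusted p ran from 0.0117 to 0.387. Slc7a3, the cationic carrier of neurons, had 111 and 130.2 reads in the controls, against 129 and 164 with DcpS shRNA, and its groups overlapped. Per kilobase, Slc7a2 was 33.1% and 31.0% of the summed level of these 3 carriers in the controls, against 25.3% and 22.6% with DcpS shRNA, while the sum was 267 and 274 against 219.7 and 233.

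The 3′ untranslated regions were searched on the transcript strand for the words ACGTGCA and CACGTGC, which overlap each other and both occur in the Dcps transcript. They were chosen from earlier results on these data, where genes that fell often had them. Because of that choice, the share of genes called lower that hold a word is no independent result. A word was present in the longest annotated 3′ untranslated region of 32.7% of 646 scanned genes called lower. It was present in 8.19% of the 13724 tested genes that were scanned and in 7.36% of all 17463 scanned genes. Of the 65 transporter genes 3 had it, or 4.62%, and none of the 3 called genes did. The sites are shown from 5′ to 3′ beside that of Dcps, to show how far they share its letters, with the word in capitals and 10 bases on either side.
Dcps: ctatcacctgCACGTGCAtttcacagct
Slc7a1: catcctgttaCACGTGCtgaatggctg
Slc38a10: gtcacggggaCACGTGCcccggccgag
Slc6a4: ccctgtaaccCACGTGCtgctgtgagg
Dcps holds both words in a single run. The others hold only CACGTGC, with different bases around it. The Slc7a1 site lies at chr5:148328161-148328187 on the minus strand (GRCm38), the Slc38a10 site at chr11:120104352-120104378 on the minus strand, the Slc6a4 site at chr11:77032149-77032175 on the plus strand, and the Dcps site at chr9:35124746-35124773 on the minus strand. Slc38a10, with 2338 and 2365 normalised reads in the controls, against 2319.6 and 2305 with DcpS shRNA, had a log2 fold change of −0.02 (SE 0.05). A match is a description of letters, not evidence that a factor acts there.

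Slc7a10 (chr7:35186385-35201114, plus strand) encodes an exchanger of small neutral amino acids such as glycine and D-serine. It was among the less abundant tested genes, with normalised read counts of 25.7 and 31.8 in the controls, against 49.97 and 60.3 with DcpS shRNA. The knockdown libraries lay above the controls, and the mean rose from 28.7 ± 4.34 to 55.2 ± 7.34 (SD, n = 2 per group), a ratio of 1.92. Its log2 fold change was 0.92 (SE 0.24, limma, Benjamini-Hochberg adjusted p 0.0300). The call ended without control 1 (limma, adjusted p 0.1351) and without DcpS shRNA 2 (0.1353), and DESeq2 gave it no adjusted p. Over its alternatives the adjusted p ran from 0.00472 to 0.1353.

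The 3′ end of Slc7a10 overlaps that of Lrp3, a receptor gene on the other strand, over 377 of its 2111 exon bases. Lrp3 had 2725 and 2656 normalised reads in the controls, against 2728 and 2619 with DcpS shRNA, far more than Slc7a10, and its groups overlapped. How reads in the shared stretch were assigned is not given, so the value of Slc7a10 is uncertain to that extent.

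**Figure D3:**
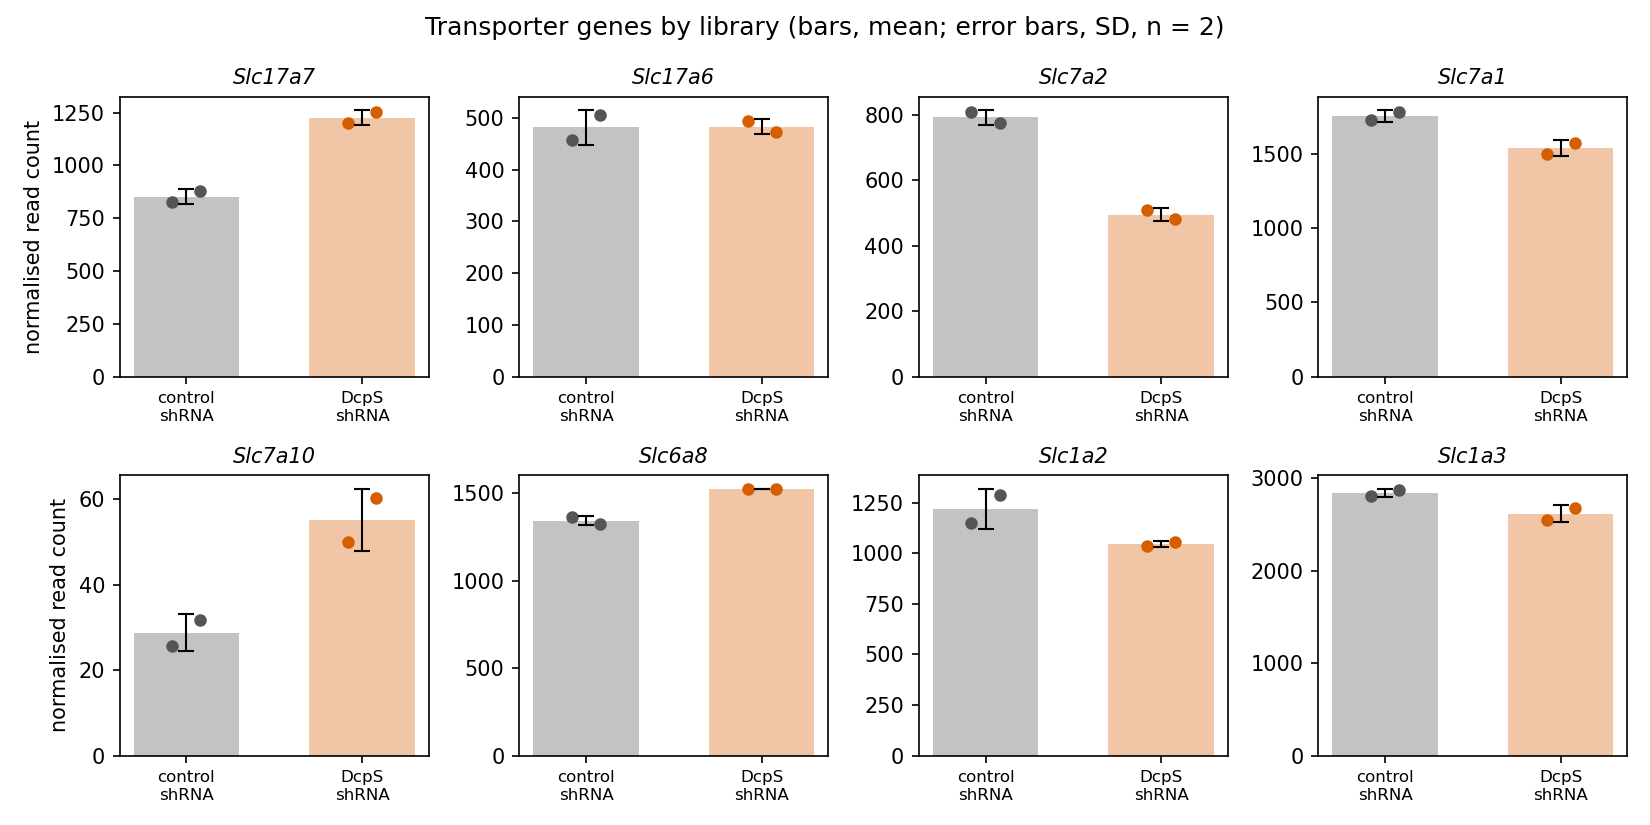
Bars show the mean normalised read count (y axis) of 8 transporter genes in control (grey) and DcpS shRNA (orange) libraries, points the 2 libraries and error bars the SD. Slc17a7 and Slc7a10 stand higher and Slc7a2 lower with DcpS shRNA; Slc17a6 overlaps between the groups, and Slc7a1, Slc6a8, Slc1a2 and Slc1a3 differ by smaller steps and were not called.

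The remaining Slc7 carriers, which trade large neutral amino acids or cystine, were not called. By limma 5 of the 11 tested Slc7 genes had an unadjusted p under 0.05, and Slc7a1, Slc7a5 and Slc7a8 were among them without a call. Slc7a5, which imports leucine and other large neutral amino acids, had 2502 and 2705 normalised reads in the controls, against 2339 and 2347 with DcpS shRNA. Those of DcpS shRNA lay below the controls, with a log2 fold change of −0.15 (SE 0.06, limma, Benjamini-Hochberg adjusted p 0.140). Its partner chain Slc3a2 had 2198 and 2212 reads in the controls, against 2072 and 2341 with DcpS shRNA, and these overlapped. The cystine and glutamate exchanger Slc7a11, which feeds glutathione synthesis, had 1812 and 1940.3 reads in the controls, against 1892 and 2124 with DcpS shRNA. It was called, higher, only without DcpS shRNA 1 (limma, Benjamini-Hochberg adjusted p 0.0420), with a range of 0.0420 to 0.953 over its alternatives. Slc7a6, which exchanges cationic for neutral amino acids, had 1175 and 1217 reads against 1194 and 1234, and a log2 fold change of 0.02 (SE 0.06).

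Slc7a8, a relative of Slc7a5, had 164 and 192 normalised reads in the controls, against 148 and 136 with DcpS shRNA, without overlap. Slc7a4, whose product resembles the cationic carriers, had 360.1 and 386 against 345 and 405, and Slc7a14 had 295 and 285 against 254 and 286. Slc7a7, which carries cationic amino acids out of cells, had 37.1 and 32.8 against 31.8 and 36.9. The last 3 overlapped between the groups, and none of these genes was called.

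The Slc1 family, of glutamate and neutral amino acid carriers, gave 0 calls in 6 tested genes by limma or edgeR, with 2 at an unadjusted p under 0.05 by limma, and 0 in the 5 with an adjusted p from DESeq2. Slc1a2, the main glutamate transporter of mature astrocytes, had 1149 and 1290.1 normalised reads in the controls, against 1034 and 1057 with DcpS shRNA. Its mean was 1219 ± 99.96 against 1046 ± 16.4 (SD, n = 2 per group), with a log2 fold change of −0.22 (SE 0.07) that did not pass (limma, Benjamini-Hochberg adjusted p 0.0645). It was called without control 1 (limma, adjusted p 0.0227) and without DcpS shRNA 2 (0.0260), and ranged from 0.0169 to 0.574 over its alternatives. Slc1a3, the glutamate transporter of radial glia and astrocytes, had 2812 and 2877 reads in the controls, against 2550.3 and 2681 with DcpS shRNA, also without overlap, and a log2 fold change of −0.12 (SE 0.05, limma, Benjamini-Hochberg adjusted p 0.230).

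The neuronal glutamate carrier Slc1a1 had 532 and 559 normalised reads in the controls, against 546 and 553 with DcpS shRNA, and its groups overlapped. The interval of its log2 fold change (95%, limma) ran from −0.15 to 0.17. Its exons share 31.9% of their bases with the opposite-strand gene 4430402I18Rik, whose own values were 38.01 and 45.1 in the controls, against 30.0 and 27.9 with DcpS shRNA. Slc1a3 held 66.9% and 65.5% of the summed level per kilobase of the 5 glutamate carriers in the controls, against 66.1% and 66.0% with DcpS shRNA. The neutral amino acid carriers Slc1a4, at 1404 and 1442 reads against 1386 and 1482, and Slc1a5, at 277 and 231 against 266 and 270.4, overlapped between the groups. Slc1a6, a glutamate carrier known from Purkinje cells, had 22.8 and 22.6 against 18.2 and 31.3.

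In the Slc6 family 9 genes were tested and 0 called by limma or edgeR, as were 0 of the 7 with an adjusted p from DESeq2, while limma gave 2 an unadjusted p under 0.05. The creatine transporter Slc6a8 (chrX:73673150-73682502, plus strand) had 1362 and 1324 normalised reads in the controls, against 1523 and 1525 with DcpS shRNA. Both knockdown libraries lay above the controls, with a log2 fold change of 0.18 (SE 0.06) that did not pass the test (limma, Benjamini-Hochberg adjusted p 0.0719). The taurine transporter Slc6a6 had 2282 and 2345 reads in the controls, against 2460.4 and 2360.1 with DcpS shRNA, and a log2 fold change of 0.06 (SE 0.05). Its groups did not overlap, and it was not called.

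Slc6a11, a mainly glial carrier that clears GABA, had 301 and 341 normalised reads in the controls, against 354 and 331 with DcpS shRNA. These overlapped. Slc6a13, a GABA and taurine carrier of the meninges, had 31.4 and 19.5 against 35.4 and 29.1. The summed normalised reads of 9 interneuron markers were 371 and 388 in the controls, against 373 and 369 with DcpS shRNA. Of the 8 tested, 1, Npy, was called higher and 0 lower, while 5 had a negative log2 fold change.

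The glycine transporter Slc6a9 had 159 and 156 normalised reads in the controls, against 143 and 131 with DcpS shRNA, without overlap and without a call; 27.8% of its exon bases lie over the opposite-strand gene Ccdc24. The proline transporter Slc6a7 had 6.65 and 22.6 in the controls, against 14.5 and 23.5 with DcpS shRNA. Its log2 fold change of 0.54 (SE 0.48) was not called, and turned to −0.27 without control 1. Among carriers of neutral amino acids in neurons, Slc6a15 had 1716 and 1821 against 1726 and 1626, and the vesicle-bound Slc6a17 had 1946 and 2108 against 2137 and 2189. Slc6a15 overlapped between the groups, Slc6a17 did not, and neither was called.

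The glutamine and lysosomal carriers of the Slc38 and Slc36 families gave 0 calls in 8 and 2 tested genes by limma or edgeR, with 1 at an unadjusted p under 0.05 by limma, and 0 in the 7 and 2 with an adjusted p from DESeq2. Slc38a1, a sodium-coupled importer of glutamine in neurons, had 5758 and 5839 normalised reads in the controls, against 5951 and 5548 with DcpS shRNA. Slc38a2, its relative that responds to amino acid shortage, had 4798 and 4566 in the controls, against 5099.8 and 4757 with DcpS shRNA. Both overlapped between the groups, and together they held 57.5% and 56.7% of the level per kilobase of the Slc38 family in the controls, against 58.1% and 57.0% with DcpS shRNA.

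Slc38a7, a lysosomal exporter of glutamine and asparagine, was the Slc38 gene with an unadjusted p under 0.05. It had 652 and 682 normalised reads in the controls, against 755 and 739 with DcpS shRNA, higher in both, with a log2 fold change of 0.16 (SE 0.07, limma, Benjamini-Hochberg adjusted p 0.210). Slc38a9, the arginine sensor of the lysosome, had 699 and 646 against 765 and 663, and the glial glutamine carrier Slc38a3 had 225 and 212 against 215 and 197. Both overlapped. Slc38a6 had 288 and 255 against 222 and 240.3, and Slc38a4, an imprinted carrier abundant in placenta and liver, had 17.1 and 30.8 against 25.4 and 12.3.

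Of the Slc36 carriers, Slc36a4 had 1830.0 and 1802 normalised reads in the controls, against 1793 and 1709.8 with DcpS shRNA, with a log2 fold change of −0.05 (SE 0.06). Slc36a1, the lysosomal proton and amino acid exporter, had 507 and 490.2 against 465 and 494. Slc36a4 lay lower in both knockdown libraries and Slc36a1 overlapped, and neither was called.

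Of 107 tested genes that work with these carriers, in 10 lists, 7 were called higher and 3 lower, which is 9.35% beside the 5.79% of all tested genes. The list of heavy chains and accessory partners had 0 of 4 tested genes called by limma (1 at an unadjusted p under 0.05), and glutathione synthesis 0 of 9 (2 at an unadjusted p under 0.05). The glycine, serine and proline enzymes had 0 of 14, with 1 at an unadjusted p under 0.05, and edgeR also called 0 in these 3 lists, as did DESeq2, which gave 7 of the glutathione genes an adjusted p. Among 10 glutamate and glutamine enzymes the mitochondrial aspartate aminotransferase Got2 was lower, from 3062 and 3074 normalised reads in the controls to 2481 and 2692 with DcpS shRNA (log2 fold change −0.25, SE 0.06), and its 3′ untranslated region holds a searched word. Glutamine synthetase, Glul, was not called. Of 4 GABA enzymes the degrading transaminase Abat was lower, from 514 and 552 to 418 and 421 (−0.34, SE 0.08), while Gad1, which makes GABA, had 96.0 and 93.3 against 62.7 and 65.9 and was not called (limma, Benjamini-Hochberg adjusted p 0.0716).

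The 7 calls in the higher direction lay in the lists of creatine and taurine, of monoamines and choline, of amino acid response and of lysosomal sensing. Of 7 tested creatine and taurine enzymes 2 were higher: Gamt, which makes creatine, at 82.7 and 82.0 normalised reads in the controls, against 124 and 137 with DcpS shRNA (0.66, SE 0.15), and the creatine kinase Ckb, at 7273 and 6203 against 8978 and 8139 (0.35, SE 0.07). Of 6 tested monoamine, acetylcholine and choline genes the choline carrier Slc44a1 was higher, at 937 and 1061 against 1192 and 1221 (0.27, SE 0.07). In the amino acid response 2 of 17 were higher, the transcription factors Atf5, at 1329 and 1446 against 1747 and 1928 (0.40, SE 0.06), and Atf4, at 2595 and 2696 against 3043 and 3019 (0.20, SE 0.05). In this list edgeR also called 1 gene lower. Stc2, of the same list, had 205 and 255 against 138 and 187, without overlap. Its log2 fold change of −0.51 (SE 0.15) was not called (limma, Benjamini-Hochberg adjusted p 0.0598). In amino acid sensing at the lysosome, of 20 genes Rragd, a GTPase of that pathway (0.23, SE 0.07), and Sesn1, a relative of the leucine sensor Sesn2 (0.20, SE 0.06) were higher. The related Sesn3, which holds a searched word, was lower, from 1803 and 1871 to 1068 and 1024 (−0.81, SE 0.06). A searched word was also in Gls2, Gad2, Tph1, Ggt5, Eif2ak4, Wars and Flcn of the partner lists, none of which was called. Abat, which was called lower, did not hold it.

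Adjusted p-values of these 10 genes ran up to 0.0486 (limma, Benjamini-Hochberg), and the calls of Atf5 and Sesn3 held in all 15 alternatives. Calls ended without control 1 for Got2 (adjusted p 0.0552), Slc44a1 (0.309), Atf4 (0.320), Rragd (0.363) and Sesn1 (0.302), and without control 2 for Got2 (0.0723), Abat (0.142), Ckb (0.122), Atf4 (0.121), Rragd (0.0551) and Sesn1 (0.156). They also ended without DcpS shRNA 1 for Ckb (0.185) and Sesn1 (0.0615), and without DcpS shRNA 2 for Gamt (0.0669), Ckb (0.0872) and Rragd (0.115). DESeq2 called Got2, Atf5 and Sesn3 but none of the other 7. Rragd and Sesn1 were also not called with either other scaling, without an expression filter or without robust empirical Bayes, so both lie at the threshold.

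**Figure D4:**
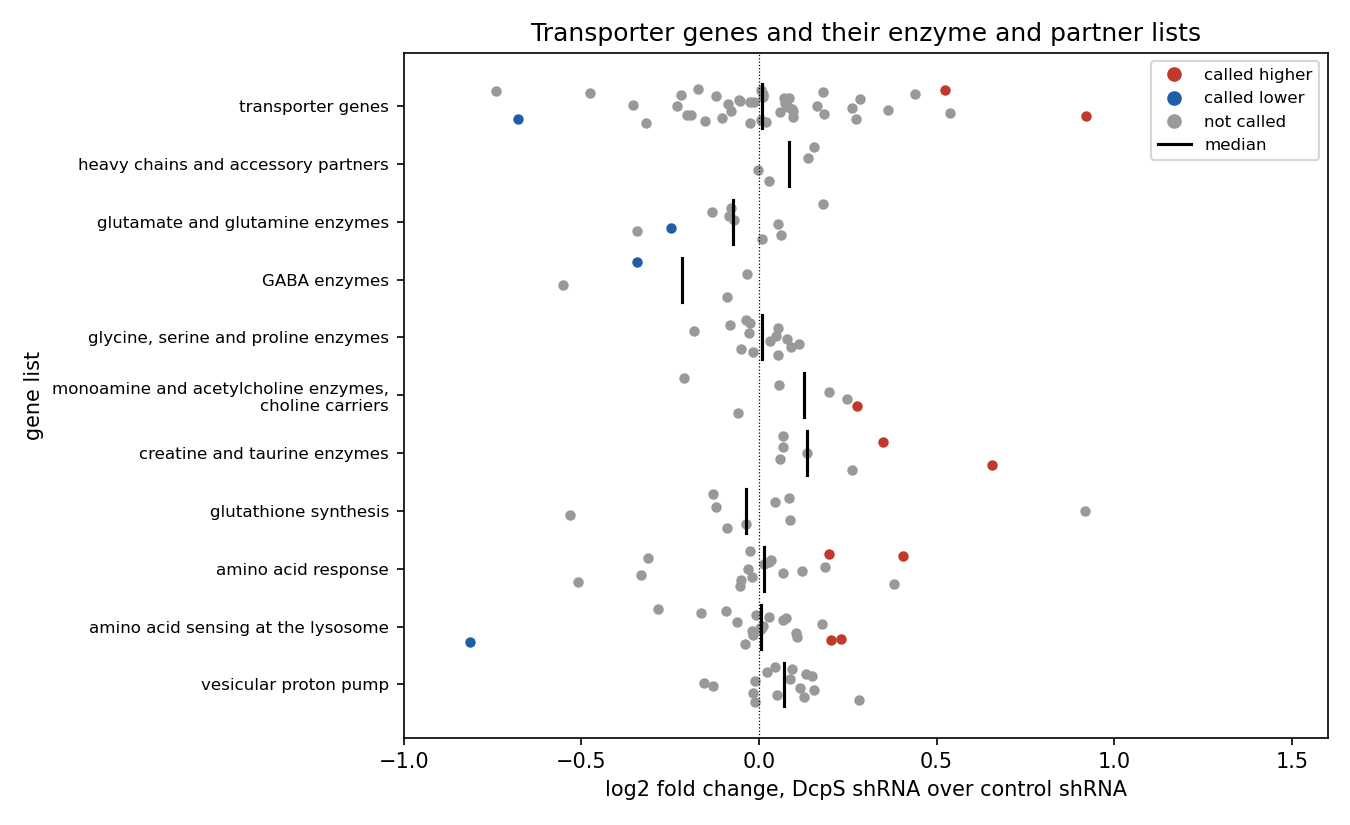
Points are log2 fold changes (x axis, DcpS shRNA over control shRNA) of tested genes in the transporter list and in 10 lists of enzymes and partners (y axis), red or blue where called higher or lower, with a black line at each list's median. List medians run from −0.22 for the 4 GABA enzymes to 0.14 for the creatine and taurine enzymes; Gamt, Ckb and Atf5 are called in the higher direction and Sesn3, at −0.81, in the lower.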

How the data were processed

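The deposited table gives 1 value per gene and library, a signal that the authors scaled by 1 size factor per library: 100% of values were whole multiples of the column's smallest positive value (tolerance 0.001), so whole reads were recovered. The submitters' processing notes name HISAT2 2.2.0, SAMtools 1.3.1, Picard, featureCounts, DESeq2 and GRCm38, with no role or order. For the annotation, the use of strand and reads that fit several genes, nothing is given in the sources used here.

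Groups came from the labels. The main test was limma 3.58.1 (R 4.3.3) on the log2 of the deposited normalised read count after adding 1, with trended, robust empirical Bayes and group as the only term, two-sided, Benjamini-Hochberg adjusted over 18110 genes that passed edgeR's filterByExpr (minimum count 10) on recovered reads. Fold changes on that scale understate low genes. Alternatives were edgeR 4.0.16 and DESeq2 1.42.0 on recovered reads, other scalings, pseudocounts and filters, a replicate block, and leaving out each library. The fit was tested on simulated data. Gene positions, exon lengths and 3′ untranslated regions came from GENCODE M21 (GRCm38), in which all 65 transporter genes matched by symbol. Genes given with fold changes were those called, those with an adjusted p up to 0.10, the most abundant per kilobase (15 highest and each subfamily's highest), those with a log2 change of at least 0.5, and called genes of the partner lists. Slc17a6, Slc7a3, Slc6a11, Slc7a11, Slc1a1 and Slc3a2 were added after their values were seen. Of the tested transporter genes 1 is counted but not reported here by name. The members and lists were chosen with earlier results of these data known. Depth was 17754768 to 21793685 reads, and limits from a count of 0 cover counting error only.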

Additional observations from a re-analysis of the deposited data

How the results depend on the processing

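The number of transporter genes called was 3 in the main setting and stayed from 2 to 4 under other scalings, pseudocounts, filters and tests. It was 6 with the replicate block in limma and 5 with the replicate block in edgeR, where Slc7a1 and Slc1a2, and in limma also Slc6a8, were added. Leaving out 1 library gave 3 to 4. Over all genes the count was 1048, against 453 with DESeq2, 1626 with the replicate block in limma, and 747 to 1745 when a library was left out, the highest without DcpS shRNA 1. Deviations of libraries with the same set number correlated at 0.04, and the labels do not say that a set was a shared preparation, so the numbers were not taken as pairs. Slc17a7 and Slc7a2 were called in every setting, and Slc7a10 in 12 of the 14 that gave it an adjusted p. Directions turned only when a library was left out, for genes that were not called. The values then ran from −0.0375 to 0.0584 for Slc1a4, −0.27 to 1.35 for Slc6a7, −0.00437 to 0.0462 for Slc7a6, −0.0636 to 0.0375 for Slc38a1, −0.0661 to 0.0763 for Slc17a6, −0.0242 to 0.0466 for Slc1a1 and −0.0900 to 0.0865 for Slc3a2. In these fits the group with 1 library was assumed to vary like the other. The groups did not vary alike: the chi-square per degree of freedom between libraries was 2.04 in the controls and 3.73 with DcpS shRNA. Without a DcpS shRNA library the spread comes from the controls alone, so calls that appear only there are weak. TMM and library-total scaling moved the median of all genes by less than 0.1 (log2). The cause of these differences was not tested. Depth limits the 21 genes that were not tested and tested genes with few reads, such as Slc6a7, Slc18a1, Slc32a1 and Slc38a4, whose intervals were wide.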
